A study of Rattus norvegicus with 11 samples.

Results

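A set of 120 genes, of 12037 in the gene table, was high in degenerating rat retinas injected with solvent and lower both in retinas injected with halofantrine and in wild-type retinas. The members were chosen by their normalized signal, which is the estimated read count of a gene divided by the effective size of its library, close to counts-per-million values. A gene was a member when its highest value among 4 halofantrine libraries and its highest value among 2 wild-type libraries both lay under its lowest value among 5 DMSO libraries. Since these values chose the members, their differences from DMSO are given as a description, without a test. The rule was met by 0.997% of the genes in the table. The same requirement in the opposite direction, with DMSO below every other library, was met by 95 genes.

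All 11 libraries came from retinas of female rats, with 1 library per animal. The P23H-1 line carries a transgene for rhodopsin with the P23H change, and the animals used here were hemizygous offspring of a cross with Long Evans rats (strain label P23HxLE). Both P23H groups were injected into the vitreous of each eye with 5 µL, either of the solvent DMSO (n = 5) or of halofantrine (n = 4). For functional assays in female P23H rats the authors describe repeated injections into the vitreous. The number of injections behind these libraries was not given. The halofantrine concentration was given only as a range of 20 to 100 µM, and neither the concentration behind these 4 libraries nor the age of any animal at collection was given in the sources used here. The wild-type rats (n = 2) were untreated and of another cross (SDxLE), so that genotype, cross and injection cannot be told apart in any difference from them. All animal numbers of the halofantrine group were below those of the DMSO group, so that a cohort following these numbers cannot be told apart from the treatment. The titles of P23H libraries end in R and those of wild-type libraries in L, with no meaning given. The sources used here gave no sequencing batch.

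Rhodopsin is the light-sensitive protein of rods, and the P23H form misfolds and leads to the loss of rods, followed by cones. As photoreceptors are lost, RNA of the remaining neurons and glia makes up more of the retina, and Müller glia and microglia commonly become reactive. Halofantrine is an antimalarial drug. A whole retina was sequenced in each case, so fewer cells of a type and less RNA per cell cannot be told apart. The files name genes by Ensembl identifier without a symbol, and 0 identifiers could be matched to the name table used here. The function of the members, their cell types and the markers of the retina were therefore not analysed here, and a few members are given by identifier.

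Library totals lay between 11685202 and 34198536 estimated counts. A pair of libraries stood apart from their groups and bear on every result below. P23H DMSO replicate 3 had a mean Pearson correlation of 0.835 with the other DMSO libraries (log2 signal, across genes), where those had 0.936 to 0.947. P23H halofantrine replicate 1 had 0.935, against 0.964 to 0.969 for the rest of its group. The pair of libraries nearest to each other differed by more than counting error (chi-square over degrees of freedom 6.85, the wild-type pair), so each library counted as 1 replicate.

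Member levels were compared first between libraries. The median abundance of the members was close to that of all genes. Leaving P23H DMSO replicate 3 aside, the median over members of the mean DMSO signal was 40.0, against 38.6 over all genes of the table, and it ran from 2.05 to 845. Relative to the wild-type mean of each gene, the median member lay 0.73, 0.68, 1.13, 0.69 and 0.66 higher on the log2 scale in DMSO replicates 1 to 5. In halofantrine replicates 1 to 4 the corresponding values were 0.21, 0.52, 0.48 and 0.42. Every DMSO library was thus above every halofantrine library in this median, as the choice of members fixes. Every halofantrine library was also above wild type, which the choice does not fix but favours, since it took genes with wild type under DMSO. Over all 12037 genes the same medians lay between -0.05 and 0.02.

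**Figure D1:**
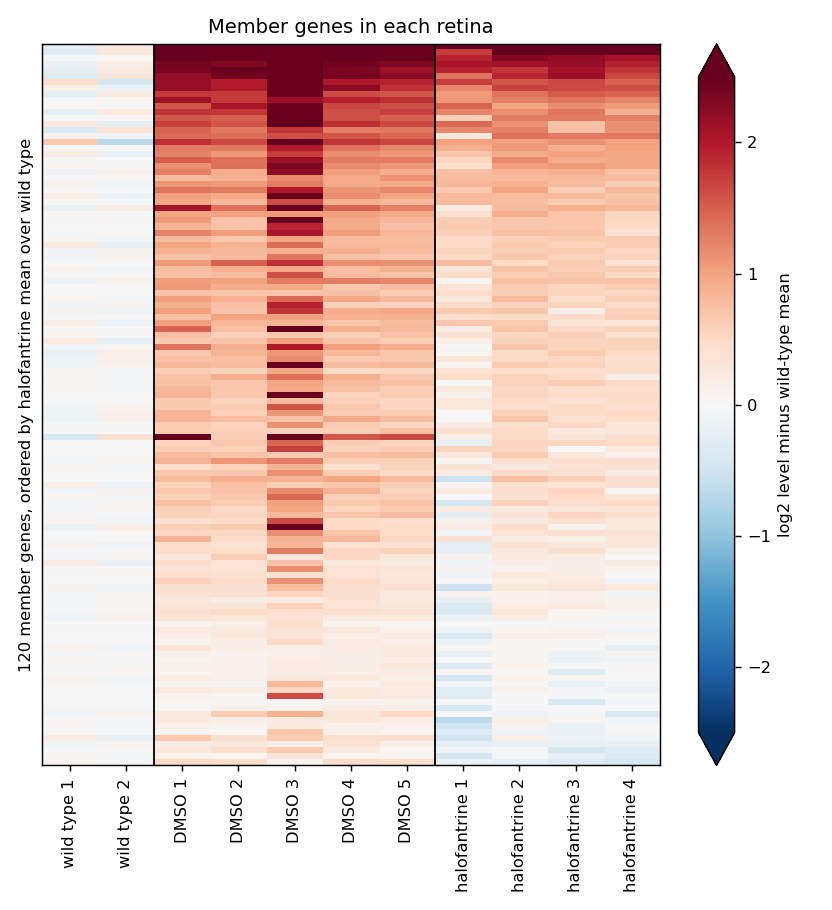
Each row is 1 of the 120 members and each column 1 retina; colour gives the log2 signal minus the wild-type mean of that gene, with values past 2.5 shown at the end colours. The DMSO columns are the reddest, DMSO replicate 3 above the others in most rows, and halofantrine replicate 1 is the palest of the halofantrine columns.

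One library set much of the height of the DMSO group. P23H DMSO replicate 3 held the highest DMSO value in 94 of the 120 members, or 78.3%, where it was the highest of the DMSO group in 38.9% of all genes. Among the members it was over 1.5 times the next DMSO library in 42 (35.0%) and over 2 times in 25 (20.8%). Over all genes these shares were 13.7% and 8.29%. It was the lowest DMSO library in 5 members (4.17%), against 34.0% of all genes. The rule asks for a high DMSO minimum and so favours genes in which an outlying DMSO library is high. These shares are therefore a description. The summed signal of the members was 20837 in P23H DMSO replicate 3 and 9259 to 9699 in the other DMSO libraries. A pair of members alone held 3358 and 2344 of it, and in the other DMSO libraries these 2 members were at 139.9 to 197 and at 5.17 to 7.49. The 4 halofantrine sums were 6762, 8364, 8202 and 7820, and the wild-type sums were 6296 and 6380. The rule fixes that each DMSO sum is above each halofantrine and wild-type sum, so that only the size of the step is described here, and it was far smaller for the DMSO libraries other than replicate 3.

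On the other side, P23H halofantrine replicate 1 was the lowest of its group in 74 members (61.7%), against 33.0% of all genes. It was the highest of its group in 13 (10.8%), against 38.3% of all genes. Because it caps the halofantrine values, the rule favours genes in which an outlying halofantrine library is low. These shares are a description as well. Halofantrine replicates 2 and 3 came closest to the DMSO range. The highest value outside the DMSO group belonged to halofantrine replicate 2 in 52 members, to replicate 3 in 38, to replicate 1 in 10 and to replicate 4 in 9. A wild-type library held it in 11. The part that these libraries play in the membership was not tested beyond leaving them out.

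**Figure D2:**
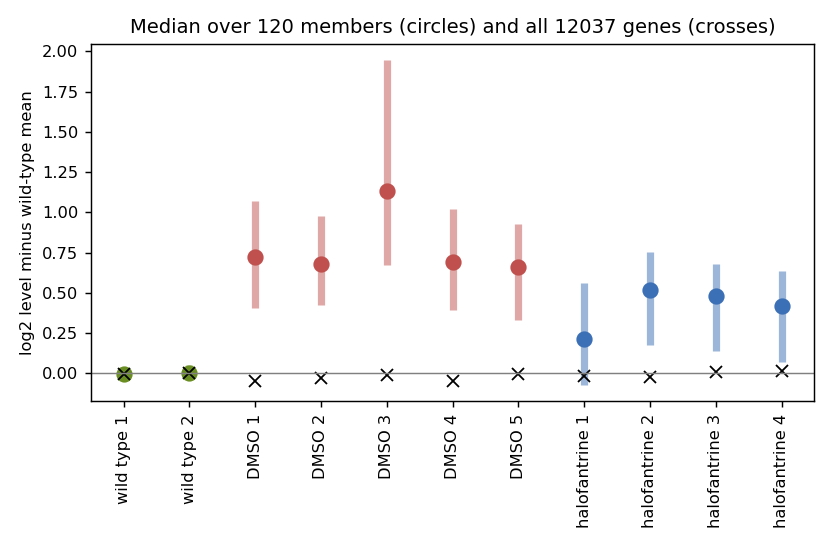
Circles show the median over the 120 members of the log2 signal minus the wild-type mean in each retina, bars the interquartile range of the members, and crosses the median over all 12037 genes. DMSO replicate 3 lies at 1.13 and the other DMSO libraries at 0.66 to 0.73, while halofantrine libraries lie between 0.21 and 0.52 and all crosses stay near 0.

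The size of the difference was then described with and without P23H DMSO replicate 3. With all libraries, the halofantrine mean of log2 signal (with 0.5 added) was below the DMSO mean by a median of -0.41 over the members, with an interquartile range of -0.61 to -0.29. Over all genes this median was -0.02. Leaving out P23H DMSO replicate 3, the median over members was -0.30, with an interquartile range of -0.42 to -0.23. A difference of at least 1 on the log2 scale was present in 12 members with all libraries and in 2 without that library. Most members thus differed modestly between the treatments. Wild type was lower still, with a median of -0.79 relative to DMSO over the members, or -0.70 without P23H DMSO replicate 3, and 31 members were then lower by at least 1 on the log2 scale.

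Members in which P23H DMSO replicate 3 was the highest DMSO library showed a median difference of -0.43 between halofantrine and DMSO on the log2 scale, and -0.30 without it (n = 94). In the other 26 members the median was -0.28, and -0.29 without it. The 24 members with a DMSO mean of at least 100, also counted without that library, had a median of -0.27 when it was left out. In the 11 members with a mean under 10 the corresponding median was -0.52. Once the library was left aside, the sets parted by its rank thus had close medians of halofantrine against DMSO. They differed in wild type against DMSO, with medians of -0.75 (n = 94) and -0.43 (n = 26) without the library. The median of halofantrine against DMSO was larger in size in the low members. Low values carry more counting error, and its part in this larger median was not tested.

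Where the halofantrine mean lay between DMSO and wild type was expressed as a percentage, with 0% for the DMSO mean and 100% for the wild-type mean of log2 signal. The median over members was 55.4%. The medians of halofantrine replicates 1 to 4 taken singly were 72.2%, 41.2%, 46.1% and 52.0%, with an SD of 13.6. In 47 members the percentage was under 50%, in 49 it was between 50% and 100%, and in 24 it was over 100%, with halofantrine under wild type on average. Without P23H DMSO replicate 3 the median was 45.8% and these numbers were 64, 32 and 24. With P23H halofantrine replicate 1 left out as well, the median was 36.6%. The percentage of a member is bound by the rule to lie above 0% and shares the DMSO values in both differences, so it carries no test.

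**Figure D3:**
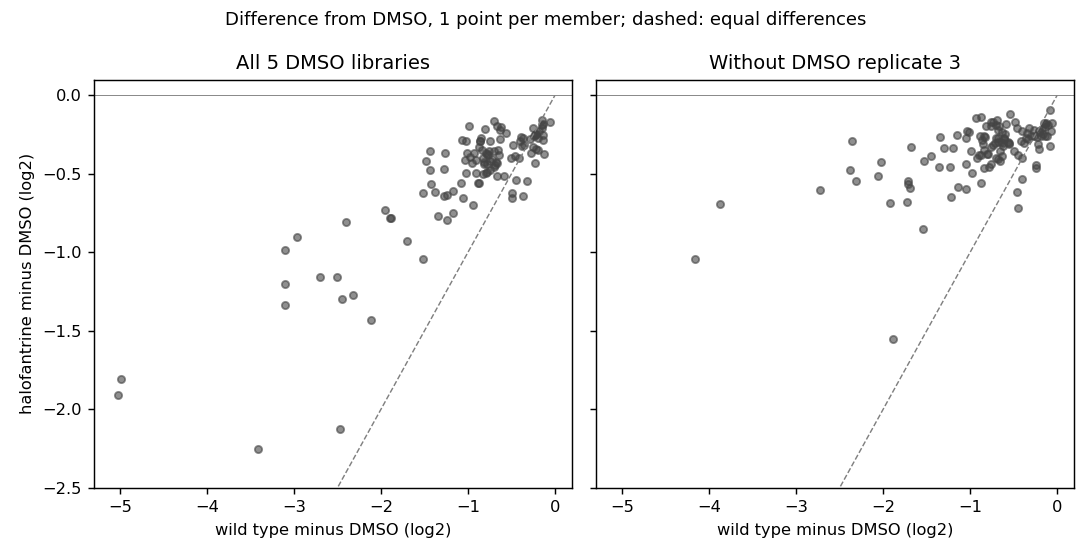
Each point is 1 member, placed by its mean log2 difference of wild type from DMSO (horizontal) and of halofantrine from DMSO (vertical), with all DMSO libraries on the left and without DMSO replicate 3 on the right; the dashed line marks equal differences. The points below -1 on the vertical axis number 12 on the left and 2 on the right, and 24 points lie below the dashed line in each panel.

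The distance by which members met the rule was small. The lowest DMSO value exceeded the highest halofantrine or wild-type value by a median factor of 1.03, and the factor was at least 1.1 in 21 members. Of those 21 members, P23H DMSO replicate 3 was the highest DMSO library in 18. In 20 members the step was larger than its 95% interval (normal approximation) for counting error alone. The rule sets this step above 0 in every member, so the number is a description and no test. Just inside the threshold lay members with factors of 1.0003, 1.0004 and 1.0009. In the first of them the lowest DMSO value was 55.01 and the highest halofantrine value 55.00. Just outside lay genes with factors of 0.9995, 0.9986 and 0.9982. Most of the members thus touch the edge of the rule, and membership of a single gene can rest on 1 library.

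The number of members moved accordingly when a library was left out, which also relaxes the rule. Without P23H DMSO replicate 3, 192 genes met it and 208 met its opposite. It was met by 259 genes without DMSO replicate 2 and by 212 without DMSO replicate 5, beside 230 and 222 in the opposite direction. Leaving out halofantrine replicate 1, 2 or 3 gave 219, 275 and 223 genes, beside 134, 354 and 138 in the opposite direction. The other 5 libraries gave 123 to 142 when left out singly, beside 107 to 119. With both P23H DMSO replicate 3 and P23H halofantrine replicate 1 left out, 320 genes met the rule and 267 met its opposite. Plain counts-per-million values gave 158 members and 61 genes in the opposite direction, while upper-quartile factors gave 94 and 123. Which of the directions held more genes therefore depended on the scaling and on single libraries (DMSO replicates 3 and 5 and halofantrine replicate 2), with 109 and 88 of the original members kept under these scalings.

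The widest step among the members was a factor of 1.5. In this gene the DMSO libraries were at 7.06, 6.20, 54.7, 6.83 and 6.26, the halofantrine libraries at 3.79, 3.91, 4.14 and 3.86 and the wild-type libraries at 2.84 and 0.861. P23H DMSO replicate 3 was far above the other DMSO libraries, and the wild-type pair was also spread. The most abundant member, by its DMSO mean without replicate 3, was at 861, 828.9, 874, 880 and 810 in the DMSO libraries. It was at 690, 720, 739 and 674 with halofantrine and at 451 and 491 in wild type. P23H DMSO replicate 3 was not the highest library here, and the step between DMSO and halofantrine is one the rule asked for. The halofantrine mean was 706 ± 29.1 (SD, n = 4), the DMSO mean 851 ± 30.3 (SD, n = 5) and the wild-type mean 471 ± 27.7 (SD, n = 2).

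The largest mean log2 difference between halofantrine and DMSO was that of ENSRNOG00000024899, at -2.25. Its DMSO values were 5.17, 7.49, 2344, 5.66 and 5.38, its halofantrine values 4.82, 3.33, 3.84 and 3.59 and its wild-type values 1.51 and 1.38. A single library carried this difference, which was -0.55 without P23H DMSO replicate 3. ENSRNOG00000012094 followed at -2.12. Its DMSO values of 54.8, 5.57, 108.8, 11.2 and 12.2 were widely spread, where the halofantrine libraries lay between 4.03 and 5.11 and the wild-type libraries at 2.60 and 4.74. Without P23H DMSO replicate 3 the difference was -1.55, and it then owed much to DMSO replicate 1.

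Halofantrine was next compared with wild type, the one pair of groups whose order the rule does not fix. The rule did hold both groups under the same DMSO minimum, and it drew genes with low halofantrine values. By edgeR's quasi-likelihood test with Benjamini-Hochberg adjustment over 12031 genes, 25 of the 120 members (20.8%) were higher with halofantrine than in wild type at an adjusted p under 0.05, where 5.55% of all genes were. No member was lower by edgeR at the adjusted threshold (0 of 120), where 7.58% of all genes were. At an unadjusted p under 0.05, 0 members were lower, beside 1856 of the 12031 genes tested. DESeq2, limma-voom and limma-voom with sample weights also gave 0 lower members, beside 12.6%, 6.09% and 24.7% of all genes. The fitted difference was above 0 in 103 members and in 6606 of the 12031 genes tested. Its median was 0.45 on the log2 scale over the members, against 0.05 over all genes tested. With DESeq2 size factors in edgeR it was above 0 in 96 members and in 6208 genes, so the sign of some members depended on the scaling. Since the rule took genes with wild type under DMSO, a lower call was unlikely from the outset, and the direction is not a result about the members.

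These counts were set beside those of genes like them. Both wild-type values lay under the lowest DMSO value in 2831 genes that were not members, and 606 of these (21.4%) were higher with halofantrine than in wild type by the same edgeR test, with 0 lower. Their fitted difference was above 0 in 2818 genes, with a median of 0.57 on the log2 scale. The share called among members was near this one and is hence not particular to them, and the difference between the sets was not tested, since the rule used halofantrine values to part them. Without overlap of the individual values, every halofantrine value was above both wild-type values in 66 members (55.0%), where the share was 23.2% of all genes and 68.5% of the 2831. Every halofantrine value was under both wild-type values in 4 members (3.33%), against 25.7% of all genes. Among the 2831 this number is fixed at 0, since any such gene would have met the rule. Members with low halofantrine values were taken out of the 2831, which also favours their share of 68.5%.

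**Figure D4:**
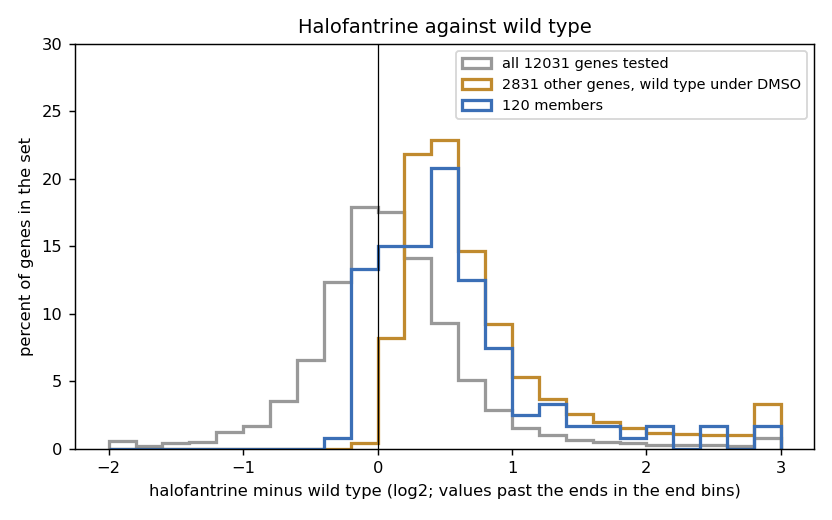
Distribution of the fitted log2 difference of halofantrine from wild type in the members, in the 2831 other genes with wild type under DMSO and in all genes tested, as percent of each set in bins of equal width. The members lie mostly right of 0, with a median of 0.45, between all genes at 0.05 and the other genes at 0.57, and 17 of them lie left of 0.

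The count of 25 depended on the libraries. Without P23H DMSO replicate 3, which entered only through the shared spread and scaling, 53 members (44.2%) were higher with halofantrine than in wild type by edgeR, beside 14.0% of all genes and 49.9% of the other genes with wild type under DMSO. Leaving out wild-type replicate 1 or 2 gave 2 and 1 members, or 1.67% and 0.833%, beside 1.87% and 1.66% of those other genes and 0.474% and 0.407% of all genes. Leaving out DMSO replicate 1 gave 16 members, and halofantrine replicates 2, 3 and 4 gave 15, 15 and 13. In these 4 fits the share was 10.8% to 13.3% of the members, 12.3% to 14.0% of the other genes and 3.07% to 3.94% of all genes. The members' share thus moved with that of the other genes. edgeR put the common variation among animals, as a coefficient beyond counting error, at 0.266 when all libraries entered and at 0.173 without P23H DMSO replicate 3. Over all genes, 668 were higher and 912 lower with halofantrine, and upper-quartile factors gave 760 and 680. For halofantrine against DMSO, the contrast that chose the members, edgeR called 1 of 12031 genes (0.00831%), and nothing is read from it here.

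The members given next were picked by their p for halofantrine against wild type, where the rule favours halofantrine above wild type. Their p-values are therefore a description. ENSRNOG00000013907 had the smallest p of the members in this comparison. Its halofantrine values were 7.82, 8.78, 9.28 and 8.73, its wild-type values 3.26 and 3.53 and its DMSO values 16.5, 12.6, 16.5, 14.7 and 13.2. Every halofantrine value was above both wild-type values, and P23H DMSO replicate 3 was close to DMSO replicate 1. The log2 difference of halofantrine from wild type was 1.39 (SE 0.192, edgeR adjusted p 0.00217). The adjusted p was 0.0717 by limma-voom. ENSRNOG00000057556 was next. Its halofantrine values of 19.4, 19.6, 19.7 and 19.6 lay just under DMSO values of 19.9 to 26.1 and far above the wild-type values of 10.8 and 11.4. The log2 difference from wild type was 0.86 (SE 0.133, adjusted p 0.00378 by edgeR), and the adjusted p was 0.0663 and 0.0545 without wild-type replicate 1 or 2.

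Below wild type, ENSRNOG00000012007 and ENSRNOG00000077983 had the smallest p, and neither passed the threshold. In ENSRNOG00000012007 the halofantrine values were 20.7, 27.0, 24.3 and 22.2, the wild-type values 28.5 and 27.0 and the DMSO values 30.1, 29.1, 34.9, 29.4 and 29.2. Its log2 difference from wild type was -0.20 (SE 0.131, adjusted p 0.317 by edgeR). In ENSRNOG00000077983 halofantrine stood at 7.999, 7.64, 7.02 and 6.65, wild type at 9.21 and 8.63 and DMSO at 12.6, 12.2, 9.32, 12.4 and 12.1. This was the rarer kind of member in which P23H DMSO replicate 3 was the lowest DMSO library. The log2 difference from wild type was -0.24 (SE 0.193, adjusted p 0.411 by edgeR).

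**Figure D5:**
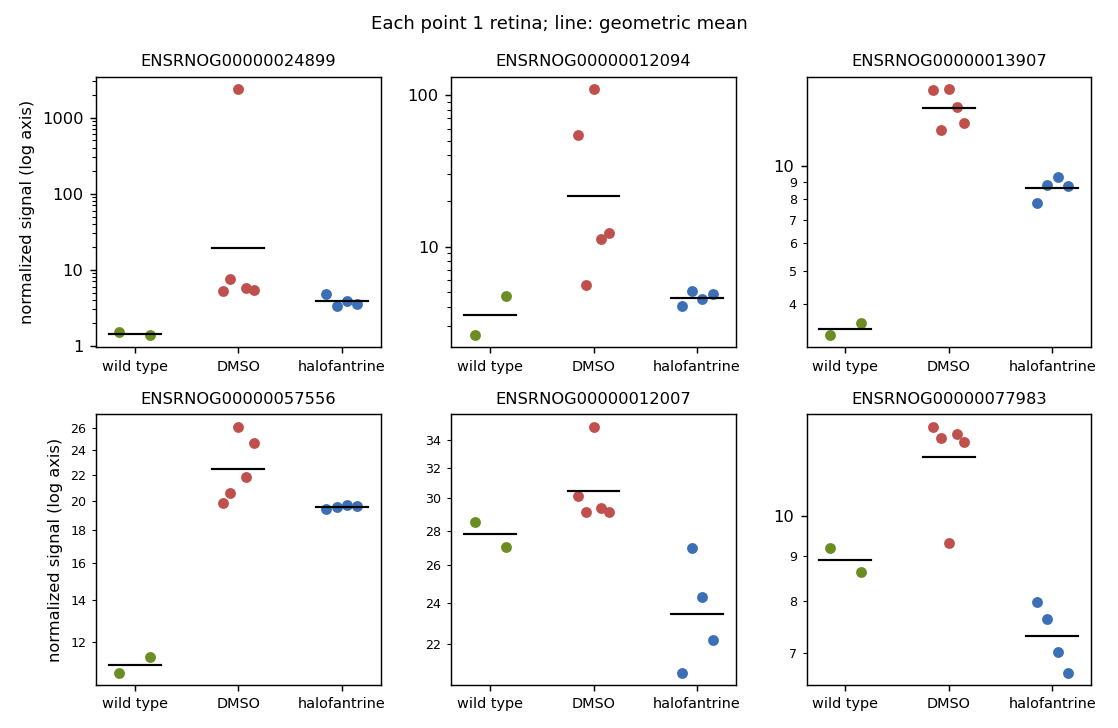
Normalized signal of the 6 members given by identifier, on a log axis, with 1 point per retina and a line at the geometric mean of each group. In ENSRNOG00000024899 a single DMSO library at 2344 lifts the DMSO mean, whereas in ENSRNOG00000013907 the halofantrine points at 7.82 to 9.28 lie above the wild-type points at 3.26 and 3.53.

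The transcript table was examined under the same rule, using the library sizes of the gene table. Of 31935 transcripts with a mean DMSO signal of at least 1, 175 met it (0.548%). That minimum was set on the DMSO group alone, which the rule asks to be high. A transcript could thus pass it through that group, or through a single high DMSO library. The share and the values that follow are therefore a description. P23H DMSO replicate 3 was the highest DMSO library in 113 of the 175. The rule favours this place for an outlying DMSO library, and its share over all transcripts was not worked out. Over the 175, the median log2 difference of halofantrine from DMSO was -0.60, and -0.47 without P23H DMSO replicate 3. These are the same reads as in the gene table and no independent measurement. The counts of a gene equalled those of 1 transcript to 3 decimals in every library for 32 members (26.7%), a share near the 28.4% of all genes, so for these members the gene value and the transcript value are the same. Transcripts of the other members were not linked to them, because the files do not pair the identifiers.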

How the data were processed

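Retinal RNA of 11 rats was sequenced from strand-specific polyadenylated libraries. The authors quantified reads by kallisto, against the Ensembl transcriptome of the rat, and summed transcripts to genes with tximport; software versions are not given in the sources used here. The deposited gene and transcript tables hold estimated counts without depth scaling. The deposited normalized signal equals those gene counts divided by 1 constant per library, and its columns have different totals. A deposited table of the authors' own halofantrine contrast (log2 fold changes, p-values, scores) was not used.

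The rule was applied to the deposited signal. Log2 values used a pseudocount of 0.5. For halofantrine against wild type, counts were rounded, genes kept by filterByExpr and tested with edgeR 4.0.16 (quasi-likelihood F test, TMM factors, all 11 libraries in 1 fit, R 4.3.3), with Benjamini-Hochberg adjustment and a threshold of 0.05. Simulated counts were used to check the scripts. Alternatives used limma 3.58.1, DESeq2 1.42.0, other scalings and left-out libraries. Counting errors cover counting alone, and p-values the spread between animals.

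Members, gene lists and alternatives were chosen with earlier results of these data known. Genes to be named required a symbol, which 0 had; the first 2 by difference from DMSO and the first 2 in each direction by p against wild type are given by identifier. Gene lists, cell type markers and promoter motifs were not analysed here. Replicates are numbered in order of deposition.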

Additional observations from a re-analysis of the deposited data

Results flagged for a closer look

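A library standing apart from its group was looked for in 24 sets of values, and 8 were found. Chance flags about 1 in 20 sets, but most of these sets hold values of the members, which the rule used, and they are not independent of each other, so the number is a description. All but 1 concern P23H DMSO replicate 3. Its summed member signal was 20837, against 9259 to 9699 in the other DMSO libraries. Its median log2 level of members over wild type was 1.13, against 0.66 to 0.73. It held the highest DMSO value in 78.3% of members, against 2.5% to 8.33% for the others. On average it correlated with the libraries of its group at 0.835, where the others had 0.936 to 0.947. It was at 2344 in ENSRNOG00000024899 (others 5.17 to 7.49), at 34.9 in ENSRNOG00000012007 (others 29.1 to 30.1) and, in the opposite direction, at 9.32 in ENSRNOG00000077983 (others 12.1 to 12.6). The remaining set concerns P23H halofantrine replicate 1, which correlated with its group at 0.935 on average, where the others had 0.964 to 0.969. Over the single members, P23H DMSO replicate 3 stood apart on the high side in 59 (49.2%), against 16.1% of all genes, and P23H halofantrine replicate 1 on the low side in 13 (10.8%), against 2.38%. The rule favours a high DMSO library and a low halofantrine library, so these shares are a description too. What set these libraries apart was not tested.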

How the results depend on the processing

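The number of members stayed between 94 and 158 under other scalings and under a minimum DMSO mean of 1. It fell to 21 when a step of at least 1.1 times was asked for, rose to 320 with both outlying libraries left out, and ran from 123 to 275 when libraries were left out singly. The median position between DMSO and wild type ran from 53.6% to 56.1% under other pseudocounts, the minimum DMSO mean and TMM scaling, the one other scaling run for it, and from 45.8% to 59.5% over single libraries left out, and moved to 36.6% with both outlying libraries left out. The share of members with P23H DMSO replicate 3 highest, an alternative added after seeing the data, lay between 70.3% and 85.7% over other scalings, the minimum DMSO mean and the larger step. For halofantrine against wild type, the 1580 genes called by edgeR became 2491 by DESeq2, 1024 by limma-voom, 6622 by limma-voom with sample weights and 5472 with both outlying libraries left out, and 211 to 3588 over single libraries (3588 without P23H DMSO replicate 3, 2787, 890 and 892 without halofantrine replicate 1, 3 or 4, and 232 and 211 without wild-type replicate 1 or 2). The 25 members called became 14 by limma-voom, 77 with sample weights and 76 with both outlying libraries left out, and 1 to 53 over single libraries. The members called made up 11.7%, 64.2% and 63.3% in the first 3 of these, beside 2.42%, 30.3% and 22.3% of all genes called higher and 9.33%, 83.9% and 74.4% of the other genes with wild type under DMSO. Each member called was higher with halofantrine in all these fits, a direction the rule favours. Where a library is left out of the wild-type pair, the lone sample is assumed to vary like the other groups. The causes of these changes were not tested. No paired analysis was possible because the labels give animal numbers that no groups share. The wild-type group held 2 retinas, which limits its precision.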
